A study of Homo sapiens with 6 samples.

Results

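CCN1, CCN2 and CCN3, genes known as targets of the transcriptional cofactor YAP (ANKRD1, THBS1, AXL and AMOTL2), and the cofactors YAP1 and WWTR1 (TAZ) themselves were described after knockdown of the long non-coding RNA NRAD1 (LINC00284). These 9 genes were picked by symbol, with their differences on the same arrays already known, and transcript clusters (probe sets that each cover 1 gene or transcript) were matched to them through the platform annotation. Of the 9, 8 had a named transcript cluster, which gave 10 transcript clusters of 53617 on the array, since CCN2 and YAP1 have a pair each. CCN1 has no named transcript cluster and was not analysed here. MDA-MB-468, a triple-negative, basal-like breast cancer cell line, was transfected for 48 h with 15 nM of either the control GapmeR or GapmeR#4, and RNA of 3 samples per group was hybridised to Affymetrix Human Gene 2.0 ST arrays. GapmeRs are modified antisense oligonucleotides that lead to cleavage of the RNA they bind. A single cell line and a single GapmeR against NRAD1 are compared, so effects of the oligonucleotide other than on NRAD1 cannot be told apart from those of the knockdown. The labels call the samples biological replicates without saying how cultures were separated, so all errors measure only the spread between these samples.

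YAP and TAZ are cofactors without a DNA-binding domain of their own. They enter the nucleus when the kinases of the Hippo pathway are quiet, and act there mainly by binding the TEAD transcription factors. The CCN proteins are secreted matricellular proteins that bind integrins and heparan sulfate, and CCN1 and CCN2 are among the most used readouts of YAP activity. In breast cancer cells YAP and TAZ are known for roles in growth, survival and stem-like behaviour.

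TEAD factors bind the motif GGAATG, so the promoter windows of the members in RefSeq (GRCh38.p14, 250 bases before to 50 after the gene start) were searched for it on both strands. At least 1 match was present in 14% of 35116 promoter windows of all genes, at least 2 in 1.37% and at least 3 in 0.128%. The windows of CCN2, ANKRD1 and THBS1 are shown because CCN2 and ANKRD1 hold the most matches of the members, one overlapping between the groups and the other not in the array data that follow, while THBS1 has the match closest to a start. They lie at chr6:131951323-131951622 (minus strand), chr10:90921038-90921337 (minus strand) and chr15:39580829-39581128 (plus strand), and capitals mark the motif.
CCN2: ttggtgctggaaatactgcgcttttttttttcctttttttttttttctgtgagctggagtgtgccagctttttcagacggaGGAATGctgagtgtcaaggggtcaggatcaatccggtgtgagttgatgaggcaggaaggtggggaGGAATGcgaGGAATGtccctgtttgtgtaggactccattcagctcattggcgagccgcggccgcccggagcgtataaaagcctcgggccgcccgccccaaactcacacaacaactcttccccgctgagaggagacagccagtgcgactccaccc
ANKRD1: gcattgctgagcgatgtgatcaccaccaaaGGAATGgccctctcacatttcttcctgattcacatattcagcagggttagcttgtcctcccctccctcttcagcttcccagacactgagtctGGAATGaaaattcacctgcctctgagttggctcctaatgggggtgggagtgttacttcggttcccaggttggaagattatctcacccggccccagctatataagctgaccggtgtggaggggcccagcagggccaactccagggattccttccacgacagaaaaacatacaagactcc
THBS1: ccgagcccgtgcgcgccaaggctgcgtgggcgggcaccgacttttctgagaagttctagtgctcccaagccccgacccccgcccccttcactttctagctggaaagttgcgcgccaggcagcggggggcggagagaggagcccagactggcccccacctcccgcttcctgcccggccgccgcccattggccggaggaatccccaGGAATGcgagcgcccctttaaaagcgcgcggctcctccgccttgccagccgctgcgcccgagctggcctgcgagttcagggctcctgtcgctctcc
The CCN2 window had 3 matches, whose first bases lie 169, 104 and 95 bases upstream of the start. ANKRD1 had 2 matches, 220 and 128 bases upstream, and THBS1 had 1, 46 bases upstream. CCN1 and CCN3 had no promoter window in the sequences used here and were not searched. Of the 7 members matched to a promoter window, 6 held the motif in at least 1 window, and WWTR1 held it in neither of its windows. Counted by window, as in the 14% of all windows, 6 of 10 held it. Several members were listed because they are known YAP targets, so nothing is read from this share. A pattern that takes in the motif of AP-1 factors (TGANTCA, any base at the centre, the same on both strands) was present in 7.71% of all windows. It was found in 1 of the 10 member windows, that of ANKRD1, 195 bases upstream. That match reads TGATTCA, while the AP-1 motif has C or G at the centre. The matches to the TEAD motif and to this pattern do not overlap each other. These matches are letters in a short window, and whether they are bound was not measured here.

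**Figure D1:**
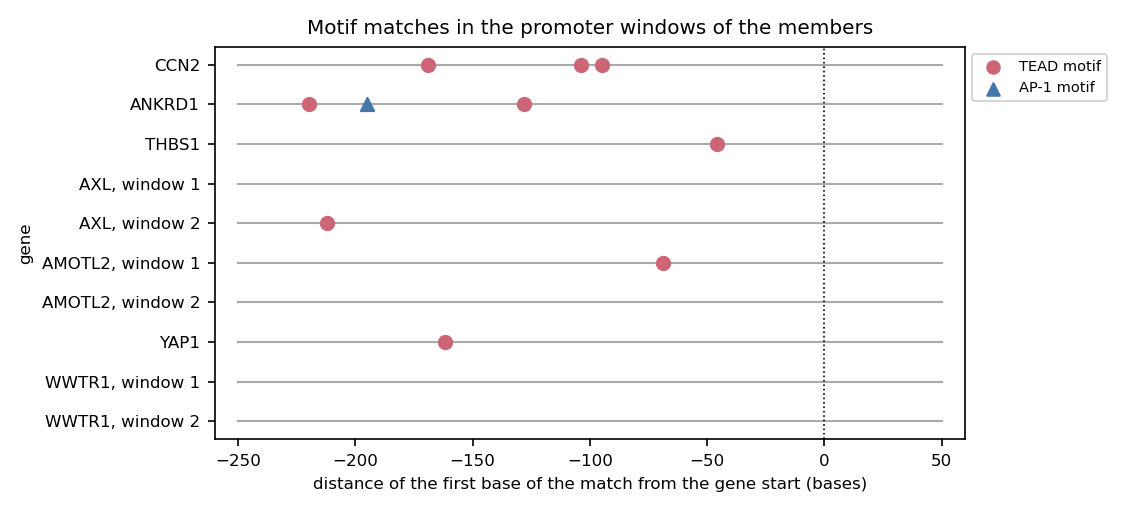
Matches to the TEAD motif (circles) and to the pattern TGANTCA (triangle, labelled AP-1 motif) in the promoter windows of the members. The x axis gives the distance of the first base of a match from the gene start in bases, and each line is 1 window. CCN2 has 3 TEAD matches and ANKRD1 has 2, and the TGANTCA match, with T at its centre, is in ANKRD1 alone.

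The deposited log2 signals had medians of 3.96 to 4.01 on the 6 arrays, and arrays of 1 group correlated at 0.988 to 0.990 over all transcript clusters, against 0.982 to 0.985 between groups. NRAD1 itself had log2 signals of 3.43, 3.46 and 4.01 with the control GapmeR and 2.96, 2.99 and 2.90 with GapmeR#4, a log2 difference of -0.69 that did not pass limma (adjusted p = 0.0908). Its groups did not overlap, and its control mean was below the array medians. The 8 named epithelial and basal markers had control means from 5.55 (KRT14) to 11.47 (EPCAM), all above the array medians. All 8 had negative log2 differences, 3 of them at an unadjusted p under 0.05 and with no overlap of the groups (KRT19 at -0.50, EGFR at -0.36 and KRT5 at -0.32), and none passed limma after adjustment. Of all 14884 named genes, 7383 had a negative difference, 3435 an unadjusted p under 0.05, and 2496 were lower with no overlap. The fibroblast markers DCN (1.44) and LUM (2.17), the only ones of 6 with a named transcript cluster, had control means below the lower quartiles of the arrays. Of the endothelial markers, PECAM1 and VWF were below the array medians (3.44 and 3.82), and KDR was not (7.53). The progesterone receptor PGR was near the lower quartile (2.61) and the estrogen receptor ESR1 near the median (4.11). No fibroblast or endothelial marker passed limma (0 and 2 of them at an unadjusted p under 0.05, the latter KDR and PECAM1, both lower with GapmeR#4). CD68, the only leukocyte marker of 4 with a named transcript cluster, had a mean of 6.94 in control cells and 6.85 with GapmeR#4. The part of these markers or cells in the results was not tested.

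CCN3, ANKRD1, AXL and THBS1 were higher after NRAD1 knockdown by 7.56-fold, 3.89-fold, 1.83-fold and 1.82-fold, whereas CCN2, AMOTL2, YAP1 and WWTR1 differed by no more than 1.20-fold. The log2 difference was above 0 for 7 of the 10 transcript clusters, as for 54.1% of all transcript clusters on the array. The groups did not overlap for 6 of the 10, against 23% of all. In each of these 6 GapmeR#4 was higher, as in 12.2% of all, and none was lower without overlap, against 10.8%. Over 1.7-fold, the cutoff in the study's figure legend for these arrays, there were 4 of 10 higher, against 1.48% of all. With limma's adjusted p under 0.05 as the threshold, 3 of the 10 passed, against 2.56% of all. Each of them was higher with GapmeR#4, against 1.15%, and none lower, against 1.42%. The members had been chosen on this very comparison, so these counts describe the choice and nothing is read from them, and no p is given for a member. The median log2 difference of the 10 was 0.20, against 0.021 over all transcript clusters.

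**Figure D2:**
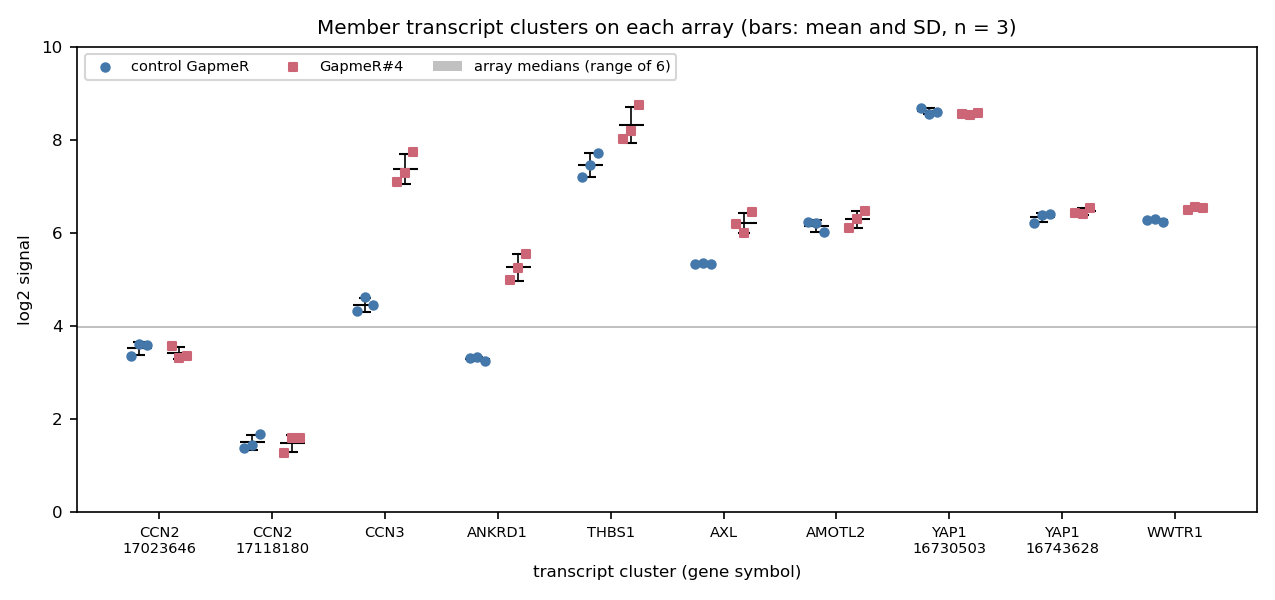
Log2 signal (y axis) of the 10 member transcript clusters (x axis) on each array, for 3 control GapmeR arrays (blue circles) and 3 GapmeR#4 arrays (red squares), with mean and SD as black bars and the range of the array medians as a grey band. CCN3, ANKRD1, AXL and THBS1 are separated between the groups, and both CCN2 transcript clusters lie below the band in both.

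Among the CCN proteins, CCN3 (formerly NOV), which is known to restrain growth in several cell types and to promote spread to bone in breast cancer models, had log2 signals of 4.31, 4.61 and 4.44 with the control GapmeR and 7.10, 7.28 and 7.74 with GapmeR#4 (transcript cluster 17072135). All control arrays lay just above the array medians and the nearest arrays of the groups were 2.48 apart. The log2 difference was 2.92 (standard error 0.18, n = 3 per group), rank 1 from the top of all transcript clusters. CCN2 (formerly CTGF), the fibrogenic member of the family, had log2 signals of 3.35, 3.60 and 3.58 with the control GapmeR and 3.56, 3.31 and 3.36 with GapmeR#4 (transcript cluster 17023646). The groups overlapped, with a log2 difference of -0.10 (standard error 0.12). Its other transcript cluster (17118180) had 1.37, 1.43 and 1.68 with the control GapmeR and 1.27, 1.58 and 1.58 with GapmeR#4, a log2 difference of -0.020 (standard error 0.14). Both CCN2 transcript clusters were below the median of every array in both groups, and the second was below the lower quartile, so a change of CCN2 could be missed at these signals. The other CCN genes, CCN4, CCN5 and CCN6, differed by 0.14, -0.021 and -0.14 on the log2 scale and did not pass (adjusted p = 0.665, 0.954 and 0.534 from limma). These 3 were named after their values were seen, and their 95% confidence intervals ran from -0.16 to 0.43, from -0.29 to 0.25 and from -0.36 to 0.083.

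Of the YAP target genes, ANKRD1, which encodes a nuclear ankyrin repeat protein first known from cardiac muscle, had log2 signals of 3.31, 3.33 and 3.25 with the control GapmeR and 4.98, 5.23 and 5.56 with GapmeR#4. Control arrays lay within 0.082 of each other and below the array medians, and GapmeR#4 arrays lay above these medians. The log2 difference was 1.96 (standard error 0.15), and control signals this low limit how well its size is known. AXL, a receptor tyrosine kinase that binds GAS6, had 5.34, 5.36 and 5.33 with the control GapmeR and 6.20, 6.0 and 6.44 with GapmeR#4. The control arrays were within 0.026 of each other, the GapmeR#4 arrays spread over 0.44, and the log2 difference was 0.87 (standard error 0.13). THBS1, the secreted glycoprotein thrombospondin-1, had 7.20, 7.46 and 7.72 with the control GapmeR and 8.02, 8.20 and 8.74 with GapmeR#4. Its groups were separated by only 0.30 and spread by 0.52 and 0.72 themselves, with a log2 difference of 0.86 (standard error 0.22). The differences of AXL and THBS1 were similar in size, and the arrays of each group were closer together for AXL.

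AMOTL2, an angiomotin that is both a target and an inhibitor of YAP, had log2 signals of 6.23, 6.22 and 6.01 with the control GapmeR and 6.11, 6.30 and 6.48 with GapmeR#4. The groups overlapped, and the log2 difference of 0.14 (standard error 0.13) was about as large as its error. YAP1 had 8.68, 8.55 and 8.61 with the control GapmeR and 8.57, 8.53 and 8.57 with GapmeR#4 (transcript cluster 16730503), a log2 difference of -0.056 (standard error 0.094) with overlapping groups. Its other transcript cluster (16743628) had 6.22, 6.38 and 6.41 with the control GapmeR and 6.44, 6.41 and 6.54 with GapmeR#4. It differed by 0.13 in the opposite direction (standard error 0.10, 0.071 without control replicate 1), and its groups were apart by 0.0037 only. WWTR1 had 6.27, 6.29 and 6.24 with the control GapmeR and 6.50, 6.56 and 6.55 with GapmeR#4. Every GapmeR#4 array was above every control array, by a mean of 0.26 on the log2 scale (standard error 0.091), or 1.20-fold. Both cofactors are controlled mainly through their location and stability as proteins, which these arrays do not measure.

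Among the GapmeR#4 arrays, replicate 3 was the highest for 8 of the 10 transcript clusters, CCN3, ANKRD1, AXL and THBS1 among them. NRAD1 was lowest on the same array, and the part of this array's knockdown in the result was not tested. Without that array the log2 difference was 2.74 for CCN3, 1.81 for ANKRD1, 0.76 for AXL and 0.65 for THBS1. The groups of these genes did not overlap, so leaving out any array could not change the sign. For AMOTL2 the log2 difference without that array was 0.051, against 0.14 with all arrays.

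**Figure D3:**
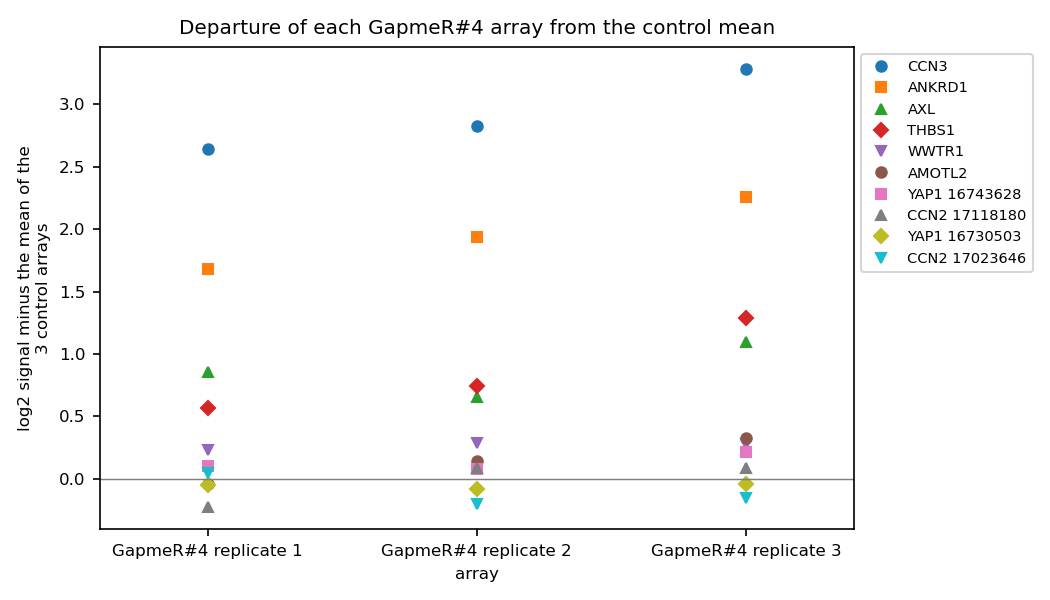
Log2 signal of each GapmeR#4 array minus the mean of the 3 control arrays (y axis) for the 10 member transcript clusters, by array (x axis). CCN3 lies 2.64 to 3.29 and ANKRD1 1.68 to 2.26 above the control mean, while the values of CCN2 and YAP1 lie on either side of 0.

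The members were set beside other genes of the pathway, written as 6 lists by role and tested with limma over all transcript clusters. Of 113 listed genes, 76 had a named transcript cluster, and among these 1 rose, 2 fell and 73 did not pass an adjusted p under 0.05. Over all transcript clusters 1.15% were higher and 1.42% lower at this threshold. Among all named genes, each also taken by its brightest transcript cluster, 222 of 14884 were higher and 381 lower. FRMD6, a FERM domain protein that acts upstream in the Hippo pathway, had log2 signals of 5.71, 5.67 and 5.81 with the control GapmeR and 6.53, 6.59 and 6.67 with GapmeR#4. On the log2 scale it rose by 0.86 (standard error 0.099, adjusted p = 0.0124 from limma), with no overlap of the groups. It was the only gene called of 28 Hippo kinases, scaffolds and inhibitors, whose median log2 difference was 0.13, against 0.0026 over all named genes. AMOT, an angiomotin like AMOTL2, had a log2 difference of -0.52 (adjusted p = 0.0568 from limma), whereas AMOTL1 had one of -0.0058 (adjusted p = 0.986). AMOT and AMOTL1 were named after their values were seen. Leaving out control replicate 1 or 2, or GapmeR#4 replicate 2 or 3, took FRMD6 to an adjusted p of 0.0527, 0.072, 0.0508 and 0.0586, respectively, from limma.

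TEAD factors and their VGLL cofactors, which compete with YAP for TEADs, gave no call among 8 genes by limma, with 4 at an unadjusted p under 0.05 (3435 of 14884 named genes had one). VGLL1 had 11.20, 11.21 and 11.00 with the control GapmeR and 10.68, 10.62 and 10.71 with GapmeR#4, a log2 difference of -0.47 (adjusted p = 0.0721 from limma). TEAD1 was also lower on every GapmeR#4 array, with a log2 difference of -0.43 (adjusted p = 0.0959 from limma). With a filter to the brighter 50% of transcript clusters both passed (adjusted p = 0.0276 and 0.0387 from limma), and so did VGLL3 in the opposite direction. VGLL3, named after its values were seen, had a log2 difference of 0.51 with no overlap of the groups (adjusted p = 0.107 from limma without the filter). Of 10 other YAP target genes none was called by limma, with 2 at an unadjusted p under 0.05, and the median log2 difference was -0.0049, 5 being positive and 5 negative. The 2 were the extracellular protein CCDC80, with a log2 difference of 0.47 (95% confidence interval 0.11 to 0.82, adjusted p = 0.173 from limma), and the transmembrane protein CRIM1, with one of -0.26 (95% confidence interval -0.48 to -0.047, adjusted p = 0.208). None of the 10 was over 1.7-fold higher, as were 141 of all 14884 named genes, and with so few genes nothing is read from this. The annotation names only 10 of the 19 genes of this list.

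**Figure D4:**
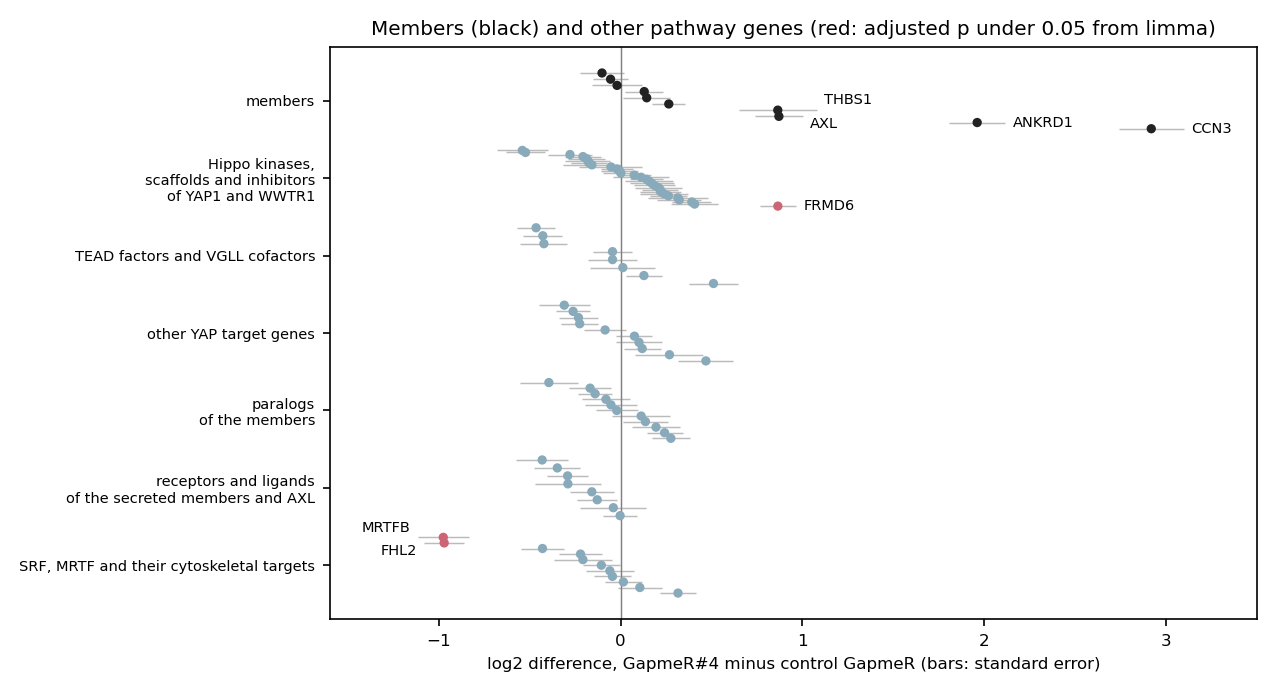
Log2 difference, GapmeR#4 minus control GapmeR (x axis, bars are standard errors), of the member transcript clusters (black) and of the other pathway genes by list (y axis), where red marks an adjusted p under 0.05 from limma. FRMD6 lies at 0.86, FHL2 and MRTFB lie at -0.97 and -0.98, and other pathway genes lie between -0.54 and 0.51.

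The structural relatives of the members and their binding partners gave no call by limma either. Of 11 paralogs, 3 had an unadjusted p under 0.05, as had 3435 of 14884 named genes. ANKRD2 (log2 difference 0.28, adjusted p = 0.243) and THBS3 (-0.40, adjusted p = 0.273) had the smallest p-values of the paralogs. Of 8 receptors and ligands all had negative log2 differences, as had 7383 of 14884 named genes, with a median of -0.22 and 3 at an unadjusted p under 0.05. CD47, a receptor of thrombospondin-1, had a log2 difference of -0.43 (95% confidence interval -0.77 to -0.094, adjusted p = 0.187), and GAS6, the ligand of AXL, one of -0.35 (95% confidence interval -0.64 to -0.053, adjusted p = 0.22). The integrin genes of this list, which encode CCN receptors, have no named transcript cluster and were not analysed here.

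CCN1, CCN2 and ANKRD1 are also known to respond to SRF and its cofactors MRTFA and MRTFB, which sense actin. SRF, MRTFA, MRTFB and their cytoskeletal targets therefore formed another list. In it 2 of 11 named genes fell and none rose at an adjusted p under 0.05 from limma, against 381 lower and 222 higher of all 14884 named genes. Log2 differences were positive for 3 of the 11 and negative for 8. TPM1, named after its values were seen, had one of 0.32 with no overlap of the groups (adjusted p = 0.159 from limma). MRTFB had log2 signals of 8.75, 8.88 and 9.01 with the control GapmeR and 8.11, 7.92 and 7.68 with GapmeR#4. On the log2 scale it fell by 0.98 (standard error 0.14, adjusted p = 0.0231 from limma). FHL2, a LIM-only protein that binds SRF and is induced by MRTFs, had 7.16, 7.25 and 7.08 with the control GapmeR and 6.18, 6.33 and 6.07 with GapmeR#4. It fell by 0.97 (standard error 0.11, adjusted p = 0.0124 from limma). In neither gene did the groups overlap. SRF and MRTFA, named after their values were seen, had log2 differences of 0.015 and -0.045 (adjusted p = 0.965 and 0.877 from limma). The call for MRTFB was lost without any single array other than GapmeR#4 replicate 1 (adjusted p = 0.063 to 0.0964 from limma), and that for FHL2 without control replicate 1 or 2 or GapmeR#4 replicate 3 (0.0522, 0.0702 and 0.0561).

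The profiles most like those of CCN3 and ANKRD1 were sought among all other named transcript clusters, as the smallest root mean square difference over the 6 arrays after subtracting each transcript cluster's mean. The 4 closest to CCN3 were EVI2B (0.31 on the log2 scale), CCDC68 (0.36), ANKRD1 (0.49) and the pseudogene ZSCAN12P1 (0.56). EVI2B had a log2 difference of 2.73 and CCDC68 one of 2.42, from control means of 2.75 and 2.20 that lie far below the array medians. Closest to ANKRD1 were ZSCAN12P1 (0.14), the AP-1 subunit FOSL1 (0.26), LYPD1 (0.30) and CCDC68 (0.34). FOSL1 went from a mean of 6.01 to 7.53 and LYPD1 from 4.22 to 5.60. No other member was among the 4 closest to either gene, and the likeness rests mainly on the difference between the groups.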

How the data were processed

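Total RNA of MDA-MB-468 cells (3 control GapmeR, 3 GapmeR#4) was hybridised to Human Gene 2.0 ST arrays of Affymetrix. Per the labels, Expression Console of Affymetrix gave the log2 signals that the authors deposited, 1 for each transcript cluster of an array. Its version and the normalization were not given in the sources used here. Deposited log2 signals entered the fits unchanged and unfiltered, and precision is limited by the number of arrays. Members and gene lists were chosen with earlier results of these data known.

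All 53617 transcript clusters were fitted with limma 3.58.1 in R 4.3.3 (2 groups, moderated variances, 2-sided, Benjamini-Hochberg over all of them), a fit first tested on simulated data. Members entered this fit with all other transcript clusters, and since they were chosen on this comparison they are described with no p and their calls are counted only beside the background. Standard errors and confidence intervals come from the same fit. A gene of a list was taken by its brightest transcript cluster. Symbols come from the platform annotation, updated through RefSeq gene IDs (16098 of 53617 transcript clusters have 1 symbol, none has several), and the supplementary gene list added 0 member transcript clusters. Named were the members, NRAD1, per list the up to 4 called genes with the largest differences or else the 2 with the smallest p, and the 4 closest profiles of CCN3 and of ANKRD1. Promoter sequences come from RefSeq (GRCh38.p14). The methods' t-test named below is the one the paper's statistical methods give for comparing 2 samples. For these arrays the paper's figure legend names an ANOVA p-value and a 1.70-fold cutoff. Alternatives were the brighter 50% of transcript clusters, an intensity trend with robust prior, quantile normalization, median centring, array weights, the replicate number as a block, the methods' t-test, leaving out each array, any transcript cluster of a gene, and Tukey biweight averages. Positions of transcript clusters are not given, since no source used here gives the array's build.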

Additional observations from a re-analysis of the deposited data

How the results depend on the processing

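The 3 calls among the 76 pathway genes were the same under quantile normalization, under median centring and with any transcript cluster of a gene (FRMD6 higher, FHL2 and MRTFB lower). They were also the same by the methods' t-test at an unadjusted p under 0.05 and over 1.7-fold. Among the brighter 50% of transcript clusters 3 were higher and 6 lower, with an intensity trend and robust prior 2 and 6, and with array weights 1 and 4. After Benjamini-Hochberg adjustment the methods' t-test left 0 and 0 (limma without adjustment had 23 of 76 at p under 0.05), and with any 1 array left out limma left 0 to 1 higher and 0 to 2 lower. Replicate numbers are shared between the groups, but arrays of the same number did not deviate together (correlations of -0.065, -0.0048 and -0.018), so they were not taken as pairs. The replicate block left 0 and 0 pathway genes, and 55 higher and 35 lower of all transcript clusters, against 614 and 760 without it. Over all transcript clusters the brighter 50% gave 1282 and 1466, the trend 1176 and 1273, the methods' t-test with adjustment 8 and 4, and leaving out 1 array 44 to 269 and 23 to 236, lowest without control replicate 2. Fewer arrays leave fewer degrees of freedom, and apart from that the cause was not tested.

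For the members, quantile normalization and median centring moved no difference by more than the SD between replicates, pooled over the groups. With 3 arrays per group, leaving out 1 cannot move a difference beyond that SD, so only the values are given. With 1 array left out, the dimmer CCN2 transcript cluster lay on either side of 0 (-0.081 to 0.084). Left-out arrays gave 2.74 to 3.06 for CCN3, 1.81 to 2.10 for ANKRD1, 0.76 to 0.98 for AXL and 0.65 to 1.01 for THBS1. Tukey biweight averages moved CCN2 to -0.25 and 0.15 for its transcript clusters and YAP1 (16743628) to 0.039. Signals of CCN2 and of ANKRD1 in control cells are below the array medians, which limits their differences.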
